A study of Rattus norvegicus with 6 samples.

Results

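The 10 genes described here encode signals that recruit or sustain leukocytes, and they were followed in rat chondrocytes, the cells of cartilage: the CC chemokines Ccl2, Ccl5, Ccl7 and Ccl20, the CXC chemokines Cxcl1, Cxcl2, Cxcl10 and Cxcl12, the CX3C chemokine Cx3cl1, and Csf1, which encodes the colony stimulating factor M-CSF. They were taken by gene symbol from the deposited table, and all 10 were among its 18420 genes and among the 13250 that passed the filter on low counts. Primary chondrocytes came from knee and hip cartilage of male Sprague-Dawley rats of 180 to 220 g. The TNF-α group (n = 3) was kept for 6 h with TNF-α at 10 ng/mL, and the TNF-α+NFL group (n = 3) was kept in the same way and then, over 24 h more, with NFL, the lysate of freeze-thawed Nanofat, a cell concentrate made from abdominal fat by collagenase digestion. The study describes the 3 replicates of each group as independent biological replicates, and also that cells of a single passage were divided among the groups. Whether the replicates came from separate animals is not given in the sources used here, so the p-values measure only the spread between these samples. Both groups received TNF-α, and untreated cells were not analysed here, so no level below can be called a response to TNF-α. A time of 6 h is given in the labels of the TNF-α libraries and one of 30 h in those with NFL, so NFL and time cannot be told apart in any difference given below. Every direction rests on the group names of the deposited columns, and the difference between these groups in the study's supplementary gene list has the opposite sign to that in the deposited columns. Were the group names exchanged in the deposited columns, every direction given here would turn.

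Chemokines are small secreted proteins that draw leukocytes along a gradient through receptors on the target cell, and their families are named for the spacing of the first cysteines. In cells that meet TNF-α, the receptor TNFR1 activates the transcription factor NF-κB, which binds short κB sites near the start of many chemokine genes. Csf1 acts on monocytes and macrophages through the receptor encoded by Csf1r and sustains their survival. In joint tissue these signals are known for the part they take in drawing monocytes, neutrophils and lymphocytes into inflamed synovium.

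The κB sites are shown first because NF-κB is the factor through which TNF-α, given to both groups, is known to reach chemokine genes. RefSeq windows of 250 bases before the gene start (build GRCr8) were on hand for 7 of the 10 genes, that is all but Ccl2, Ccl5 and Csf1. The κB consensus, searched on both strands, matched in 4 of the 7 windows (Ccl20, Cxcl1, Cxcl2 and Cxcl10) and in 1185 of the 33469 windows of all genes (3.54%). In the lines below the capitals mark the matching bases, each line reads 5′ to 3′ on the strand of the gene, and 35 bases are shown on each side.
Ccl20: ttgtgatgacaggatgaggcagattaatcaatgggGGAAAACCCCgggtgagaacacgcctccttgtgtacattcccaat
Cxcl1: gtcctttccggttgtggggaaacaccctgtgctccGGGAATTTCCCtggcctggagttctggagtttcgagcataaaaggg
Cxcl2: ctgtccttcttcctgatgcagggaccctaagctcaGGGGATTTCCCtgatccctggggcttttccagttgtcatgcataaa
Cxcl10: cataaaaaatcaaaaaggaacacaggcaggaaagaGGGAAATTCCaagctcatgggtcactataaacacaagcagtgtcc
The Ccl20 line lies at chr9:91837035-91837114 on the plus strand, with its match at -89 to -80 from the gene start. The Cxcl1 line lies at chr14:17479360-17479440 on the minus strand, with the match at -84 to -74. The Cxcl2 line lies at chr14:17467284-17467364 on the minus strand, with the match at -74 to -64. The Cxcl10 line lies at chr14:15988844-15988923 on the plus strand, with the match at -187 to -178. In Cxcl1 and Cxcl2 the 11 capital bases hold 2 matches that overlap, at a like distance from the starts of these genes, which are neighbours in the RefSeq annotation. A match is a description of letters and not a binding site, and no match in the windows of Ccl7, Cxcl12 and Cx3cl1 says only that these letters are not in those windows.

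None of the 10 genes differed between the groups past an adjusted p of 0.05 by edgeR's quasi-likelihood test, in either direction, where 0.611% of the 13250 tested genes did. Ccl5 alone had an unadjusted p under 0.05, as 11.1% of tested genes did. The DESeq2 Wald test and limma-voom also called 0 of the 10, although DESeq2 gave no adjusted p for Ccl5, Cxcl2 and Cxcl10. The log2 fold change of TNF-α+NFL against TNF-α was below 0 in 8 of the 10 and above 0 in Cxcl10 and Cxcl12. Its median over the 10 was -0.062, beside -0.0035 over all tested genes, of which 51.8% were below 0. In none of the 10 did the 3 values of a group all lie above the 3 of the other, against 16.8% of tested genes. The exact permutation test of 3 libraries against 3 can give no p below 0.1 (two-sided), and no gene of the 10 reached it.

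The genes were far apart in level. On the FPKM scale, which corrects for transcript length and lets genes be set beside each other, Ccl2 averaged 3109 over the 6 libraries and ranked 11 of the 18420 genes. Ccl7 came next at 1156 (rank 43), followed by Csf1 at 615 (rank 121) and Cxcl1 at 405 (rank 206). Cxcl12 at 152 and Cx3cl1 at 109 stood in the middle of the order. Ccl20 at 35.9 and Cxcl2 at 18.3 were lower, and Ccl5 at 7.74 and Cxcl10 at 4.93 came last. Ccl2 RNA was thus more abundant than that of every other chemokine of the 10, at 2.69 times the mean FPKM of Ccl7. Each neighbour in this order was separated from the next over all 6 libraries, except Ccl5 and Cxcl10, whose ranges of 5 to 10.0 and 4.40 to 5.37 overlapped. Together the 10 genes held between 0.664% and 0.715% of the estimated counts of a library, and Ccl2, Csf1 and Ccl7 made up 82.5% to 83.9% of that.

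**Figure D1:**
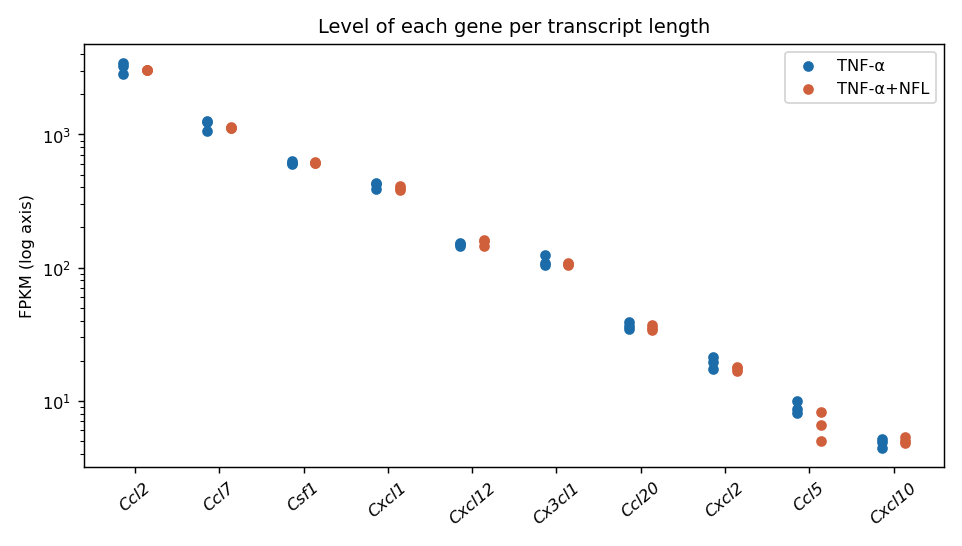
Level per transcript length (FPKM, log axis) of the 10 genes in the 3 TNF-α libraries and the 3 TNF-α+NFL libraries, each point 1 library, ordered by the mean of all 6. The order runs from Ccl2 at a mean of 3109 to Cxcl10 at 4.93, and the colours of the groups lie side by side within every gene.

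The monocyte attractants Ccl2 and Ccl7 are neighbouring genes in the RefSeq annotation, and their proteins act on monocytes mainly through CCR2. The Ccl2 CPM, the estimated count scaled to the size of each library (TMM normalization), was 2167, 2447 and 2593 in TNF-α replicates 1, 2 and 3 and 2301, 2314 and 2312 in TNF-α+NFL replicates 1, 2 and 3. The values of the other genes follow in the same order. All 3 TNF-α+NFL libraries lay between TNF-α replicate 1, the lowest of the 6, and TNF-α replicate 2. The means were 2402 ± 217 (SD, n = 3) and 2309 ± 7.21 (SD, n = 3), a log2 fold change of -0.057 (SE 0.056, adjusted p = 0.78 by edgeR's quasi-likelihood test). In percent this is -3.88%, with a 95% interval from -11.7% to 4.66%.

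Ccl7 (Entrez gene 287561) resembled Ccl2 (Entrez gene 24770) in the order of its TNF-α libraries. Its CPM was 843, 971 and 983 in the TNF-α group and 896, 875 and 879 in the TNF-α+NFL group. The TNF-α+NFL libraries again fell in the gap between TNF-α replicate 1 and the other TNF-α libraries. The log2 fold change was -0.078 (SE 0.053, adjusted p = 0.65 by edgeR's quasi-likelihood test), which in percent is -5.27% with a 95% interval from -12.5% to 2.58%.

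Ccl20 (Entrez gene 29538), the ligand of CCR6 that attracts Th17 cells and immature dendritic cells, was at 28.6, 26.8 and 30.5 CPM in the TNF-α group and at 28.9, 26.5 and 27.5 CPM in the TNF-α+NFL group. The groups lay across each other, and the log2 fold change was -0.052 (SE 0.063, adjusted p = 0.84 by edgeR). Its CPM rested on 518 to 604 estimated counts per library.

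Ccl5 (Entrez gene 81780), also called RANTES, attracts T cells and monocytes and had, over the 6 libraries, the log2 fold change farthest from 0 among the 10. It was at 5.50, 4.35 and 4.70 CPM in the TNF-α group and at 3.52, 2.71 and 4.43 CPM in the TNF-α+NFL group. The groups touched at a single point, since TNF-α+NFL replicate 3 lay just above TNF-α replicate 2. The means were 4.85 ± 0.586 (SD, n = 3) and 3.56 ± 0.858 (SD, n = 3), a log2 fold change of -0.45 (SE 0.18, unadjusted p = 0.025, adjusted p = 0.35 by edgeR's quasi-likelihood test). The exact permutation p was 0.2, and the interval of the percent change ran from -43.6% to -4.44%. Ccl5 rested on 53 to 105 estimated counts per library, which alone gives a coefficient of variation (CV, the SD in percent of the mean) of 10.3% in the TNF-α group and 11.98% in the TNF-α+NFL group. The difference did not pass the correction for the number of genes, and its unadjusted p was under 0.05 in 11 of 17 alternative fits, with adjusted p from 0.29 to 0.76 where the tool gave one. The size of the difference rested on single libraries, since the log2 fold change was -0.28 without TNF-α+NFL replicate 2 and -0.63 without TNF-α+NFL replicate 3. With the length trend removed and TNF-α replicate 1 left out it was -0.21.

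Cxcl1 and Cxcl2, neighbours on the chromosome, encode ligands of the neutrophil receptor CXCR2. Cxcl1 (Entrez gene 81503) was at 360, 383 and 393 CPM in the TNF-α group and at 372, 365 and 349 CPM in the TNF-α+NFL group. TNF-α replicate 1 again lay among the TNF-α+NFL libraries while TNF-α replicates 2 and 3 lay above them. The log2 fold change was -0.067 (SE 0.043, adjusted p = 0.62 by edgeR). Cxcl2 (Entrez gene 114105) was far lower, at 18.9, 21.0 and 22.9 CPM in the TNF-α group and 19.4, 19.3 and 18.1 CPM in the TNF-α+NFL group. The libraries fell in the same pattern, and the log2 fold change of -0.14 (SE 0.076, adjusted p = 0.53 by edgeR) did not pass. Without TNF-α replicate 3 it was -0.073.

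Cxcl10 (Entrez gene 245920), an interferon-responsive ligand of CXCR3 on activated T cells, was at 5.55, 5.72 and 4.90 CPM in the TNF-α group and 5.57, 5.38 and 6.01 CPM in the TNF-α+NFL group. The values of the groups were interleaved, with a log2 fold change of 0.068 (SE 0.12, adjusted p = 0.90 by edgeR). At 97 to 118 estimated counts per library its interval was wide, from -11.9% to 24.8%.

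Cxcl12 (Entrez gene 24772), which retains CXCR4-bearing stem cells and lymphocytes in their niches, was at 365, 343 and 360 CPM in the TNF-α group and 376, 344 and 372 CPM in the TNF-α+NFL group. In each group replicate 2 was the lowest, and the log2 fold change was 0.033 (SE 0.044, adjusted p = 0.86 by edgeR). It was the only gene of the 10 with fractional estimated counts, so its reads were in part shared out by the estimate.

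Cx3cl1 (Entrez gene 89808), or fractalkine, is made as a membrane-bound protein and acts on monocytes through CX3CR1. Its CPM was 393, 326 and 342 in the TNF-α group and 340, 332 and 337 in the TNF-α+NFL group. Here TNF-α replicate 1 was the highest library, and the 3 TNF-α+NFL libraries lay between the other TNF-α libraries. The log2 fold change was -0.074 (SE 0.061, adjusted p = 0.73 by edgeR).

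Csf1 (Entrez gene 78965) gave the smallest difference of the 10. It was at 2535, 2351 and 2401 CPM in the TNF-α group and at 2436, 2412 and 2408 CPM in the TNF-α+NFL group. The TNF-α+NFL libraries lay between the TNF-α libraries, below replicate 1 and above replicates 2 and 3. With 46456 to 48424 estimated counts per library, its log2 fold change was -0.0062 (SE 0.038, adjusted p = 0.98 by edgeR's quasi-likelihood test). The 95% interval of its percent change ran from -5.95% to 5.42%, the narrowest of the 10, and changes beyond those bounds lie outside it.

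**Figure D2:**
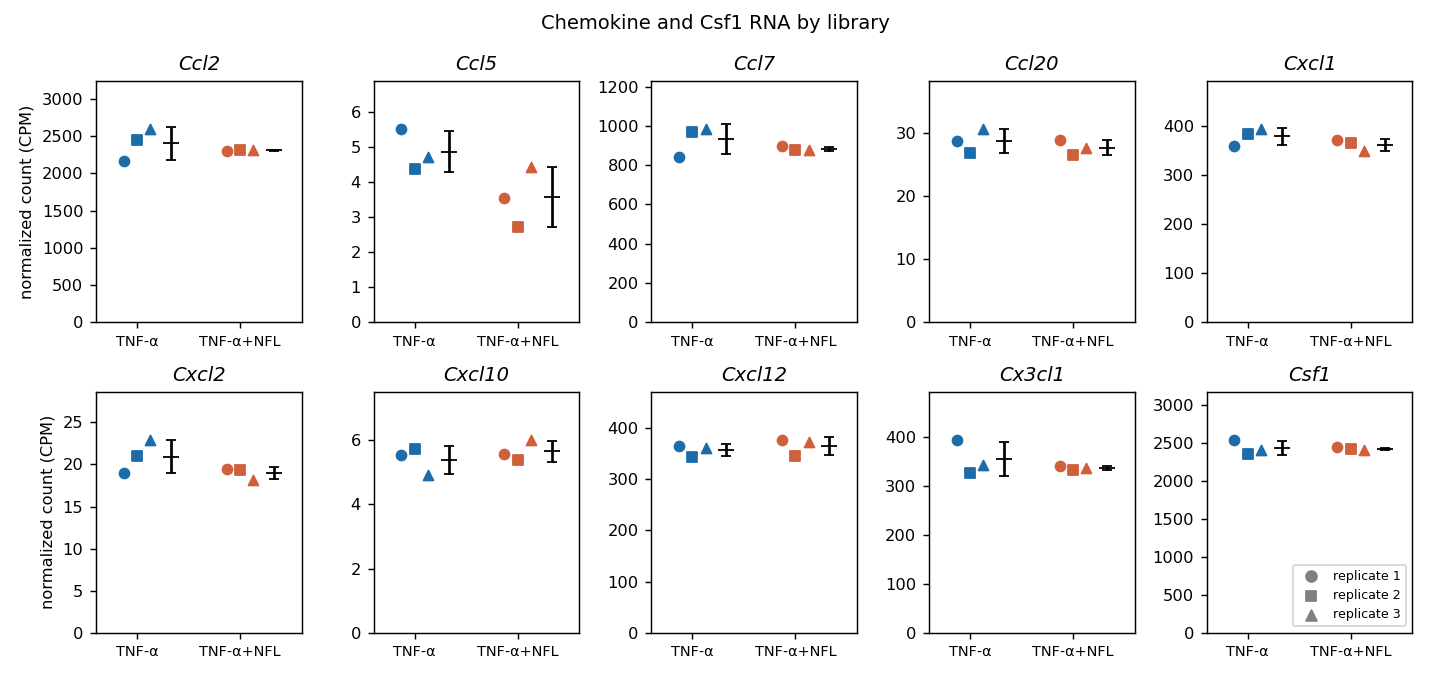
Normalized count (CPM, linear axes from 0) of each gene in each library, blue for TNF-α and orange for TNF-α+NFL, with the marker shape giving the replicate number and the bars the mean ± SD (n = 3). For Ccl2 the TNF-α libraries span 2167 to 2593 while the TNF-α+NFL libraries lie between 2301 and 2314, and in no panel are the groups fully apart.

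**Figure D3:**
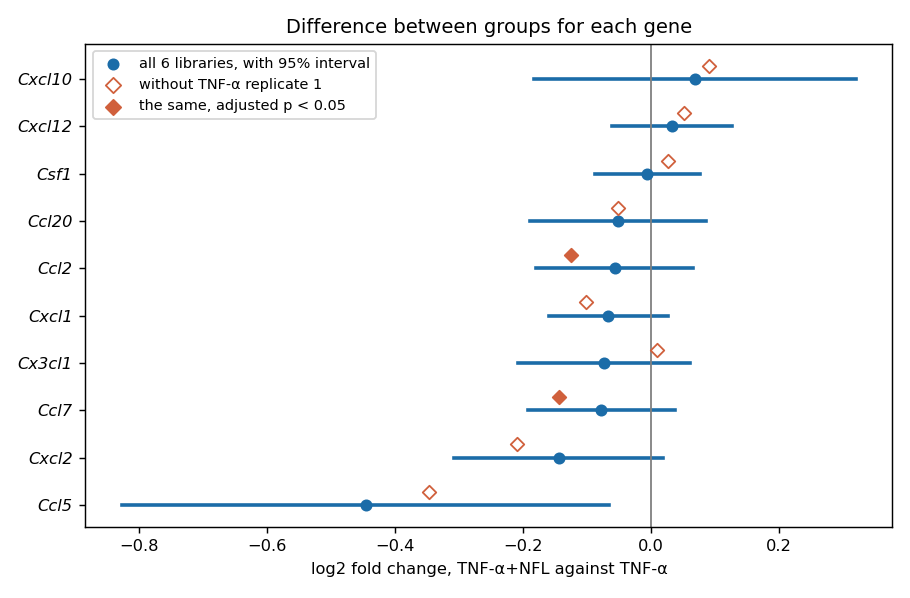
Log2 fold change of TNF-α+NFL against TNF-α with its 95% interval for the 10 genes (blue, all 6 libraries), and the estimate without TNF-α replicate 1 (diamonds, filled where the adjusted p was under 0.05). Only the interval of Ccl5 lies wholly below 0, and only Ccl2 and Ccl7 have filled diamonds.

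The TNF-α libraries were spread more widely than the TNF-α+NFL libraries for most of the genes. The SD of log2 CPM was larger in the TNF-α group for 8 of the 10 genes, and for 62.7% of all tested genes. The CV of Ccl2 was 9.02% in the TNF-α group and 0.312% in the TNF-α+NFL group, where counting alone gives 0.461% and 0.470%. For Ccl7 it was 8.30% and 1.24%, against counting values of 0.740% and 0.760%. Cx3cl1 showed the same, with 9.90% and 1.26%. Ccl5 and Cxcl12 went the other way, with CVs of 12.1% and 24.1% for Ccl5 and 3.26% and 4.72% for Cxcl12. TNF-α replicate 3 was the highest of the 6 libraries in 5 genes, namely Ccl2, Ccl7, Ccl20, Cxcl1 and Cxcl2, and it was the highest in 20.6% of all tested genes. TNF-α replicate 1 was the highest in Ccl5, Cx3cl1 and Csf1 and the lowest in Ccl2 and Ccl7.

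The deviations of the libraries moved with transcript length. The first principal component of the libraries (26.1% of the variance) set TNF-α replicate 1 at one end and TNF-α replicate 3 at the other, and the deviation of genes from their mean ran with transcript length in opposite directions in these libraries. In TNF-α replicate 3 the median deviation on the log2 scale was 0.071 in the genes below the lower quartile of length and -0.069 in those above the upper quartile, and in TNF-α replicate 1 it was -0.037 and 0.053. It was weaker in TNF-α+NFL replicates 1 (-0.020 and 0.010) and 3 (-0.016 and 0.0085), while TNF-α replicate 2 had 0.045 and -0.038 and TNF-α+NFL replicate 2 had -0.038 and 0.041. The transcripts of 7 chemokines, from Ccl5 at 543 bases to Cxcl10 at 1118, were shorter than the lower quartile of 1603 bases, whereas Csf1 at 3937 was longer than the upper quartile of 3915. At the length of Ccl2 (757 bases) the trend over all genes stood at -0.053 in TNF-α replicate 1, at 0.066 in replicate 2 and at 0.085 in replicate 3 on the log2 scale. Its mean over the TNF-α+NFL libraries minus that over the TNF-α libraries was -0.065, about the size of the log2 fold change of Ccl2 itself. When the trend was taken out of every library, the SD of log2 CPM in the TNF-α group went from 0.13 to 0.061 for Ccl2, from 0.12 to 0.051 for Ccl7 and from 0.066 to 0.0081 for Cxcl1. It also became smaller for Cxcl2, Cx3cl1 and Csf1. It became larger for the short genes Ccl5 (from 0.17 to 0.26), Cxcl10 (from 0.12 to 0.15) and Ccl20 (from 0.095 to 0.11), and from 0.047 to 0.049 for Cxcl12. The median log2 fold change of the 10 genes then was -0.011, and Ccl2 and Ccl20 changed sign to 0.012 and 0.012. The trend was fitted in each library over all genes, so taking it out also removes any group difference that genes of like length share. The part of transcript length in the differences between the groups was therefore not tested.

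**Figure D4:**
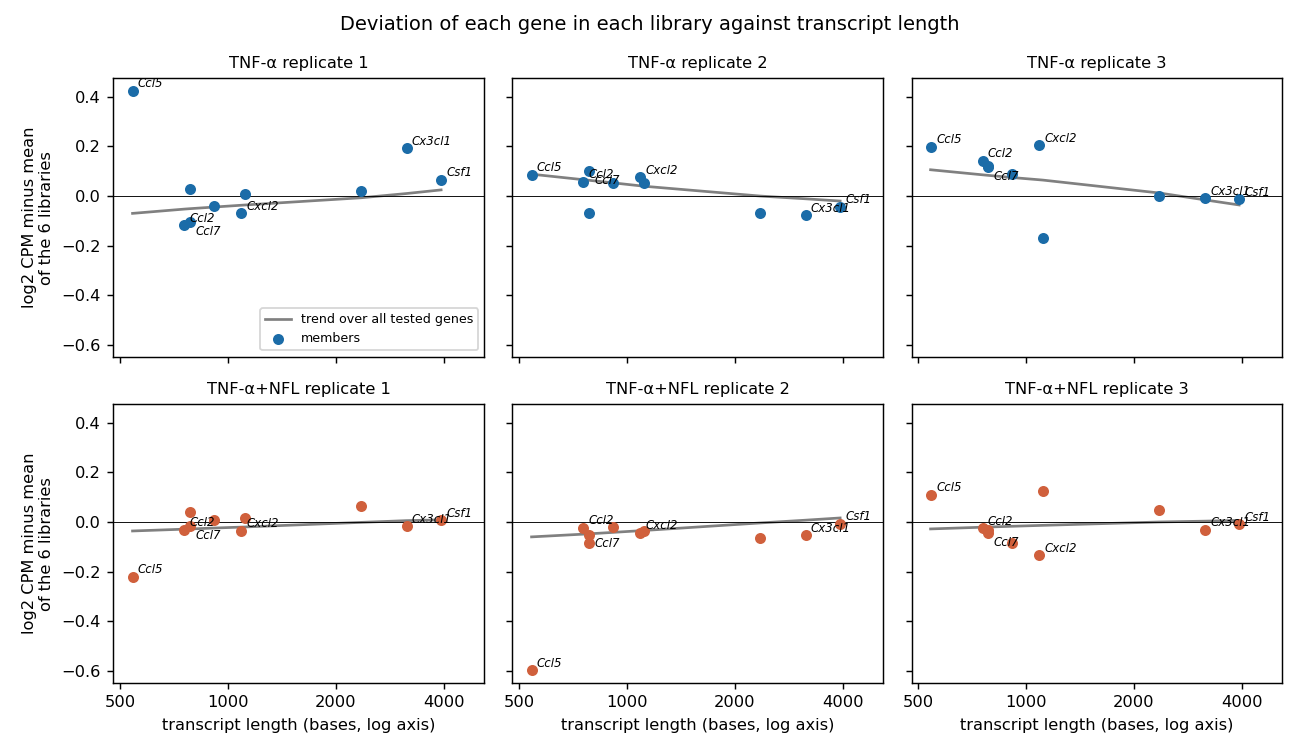
Deviation of each gene's log2 CPM from its mean over the 6 libraries (vertical axis) against transcript length in bases (log axis), 1 panel per library, with the trend over all tested genes as a grey line. Of the 7 short genes, Ccl2, Ccl7, Cxcl1 and Cxcl2 lie below 0 in TNF-α replicate 1 while Ccl5, Ccl20 and Cxcl10 lie above it, and in TNF-α replicate 3 all but Cxcl10 lie above 0.

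Leaving out TNF-α replicate 1 changed the call of the monocyte attractants. In that fit Ccl2 had a log2 fold change of -0.13 (adjusted p = 0.0093 by edgeR's quasi-likelihood test) and Ccl7 one of -0.14 (adjusted p = 0.0023), and both counted as lower in the TNF-α+NFL group, where 3.51% of tested genes did. Cxcl1 (-0.10, adjusted p = 0.066 by edgeR) and Cxcl2 (-0.21, adjusted p = 0.092 by edgeR) did not pass. Csf1 and Cx3cl1 changed sign, to 0.026 and 0.0096. Leaving out TNF-α replicate 3 instead moved Ccl2 to 0.0033 and Ccl7 to -0.037, with neither called. Without TNF-α replicate 1, 5 of the 10 genes did not overlap between the groups, where 37.3% of tested genes did not. Of these, Ccl2, Ccl7, Cxcl1 and Cxcl2 were lower in the TNF-α+NFL group and Csf1 was higher. With the length trend also removed, and TNF-α replicate 1 still left out, none of the 10 passed, and Ccl2 stood at -0.017 (adjusted p = 0.82 by edgeR) and Ccl7 at -0.040 (adjusted p = 0.51 by edgeR). Over all 17 alternatives the adjusted p of Ccl2 ran from 0.0093 to 0.99 and that of Ccl7 from 0.0023 to 0.94, and the fit without TNF-α replicate 1 was the only one in which either passed.

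TNF-α replicate 1 also held RNA of macrophage genes, the cells on which Csf1 and several of these chemokines act. Csf1r, the receptor of Csf1, had 40 estimated counts there and 1 to 7 in the other libraries. Tyrobp had 11 and Lyz2 14.95 there, and both were listed at 0 in the 5 other libraries, while C1qb was at 0 in all 6. The sum over the 8 listed macrophage markers other than Cd68 and Cd14 was 93.95 in that library and 10 to 13 in the others, and 6 of the 8 were highest there. Cd68 (387 to 502 estimated counts) and Cd14 (899 to 1089) were found in every library and carried most of the summed CPM of the 10 listed markers. That sum, mainly of Cd68 and Cd14, ran from 78.3 to 83.0 in the TNF-α group and from 70.0 to 71.8 in the TNF-α+NFL group. Ccl3, a chemokine made by macrophages, was at 6 estimated counts in TNF-α replicate 1 and 0 to 3 elsewhere. Ccl5, Cx3cl1 and Csf1 had their highest value in this same library, as 21.3% of all tested genes did, and the part of macrophage RNA in it was not tested. In bulk RNA, fewer cells of a type and less RNA per cell cannot be told apart.

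The labelled cell type was checked in the same libraries. Of 15 chondrocyte markers 13 passed the filter, among them Col2a1 at an FPKM of 3.69 to 4.80, Acan at 2.34 to 3.04 and Sox9 at 2.05 to 2.55, while Matn1 and Cnmd did not pass. Col11a1 and Prg4, at an FPKM of 210 to 265 and 495 to 657, carried most of the summed level of that list. All 10 markers of fibroblasts and adipose stroma passed the filter, among them Col1a1 at an FPKM of 582 to 692, Thy1 at 1218 to 1359 and S100a4 at 1681 to 2027, and their summed CPM was 9386 to 10192 in the TNF-α group and 9910 to 10165 in the TNF-α+NFL group. Of 8 adipocyte markers 4 passed the filter (Fabp4 at 154 to 187 estimated counts, Lpl at 119 to 193, Cebpa at 285 to 326 and Pparg at 28 to 33), while Adipoq, Plin1, Lep and Cidec had at most 4 in any library. Of 7 endothelium markers Egfl7 passed, at 194 to 273 estimated counts, and Kdr had 0. The summed CPM of the chondrocyte markers ran from 3556 to 4248 in the TNF-α group and from 3849 to 4124 in the TNF-α+NFL group, and no marker on any list passed an adjusted p of 0.05 by edgeR. Col11a1 came closest, at a log2 fold change of 0.22 (adjusted p = 0.052 by edgeR), while Prg4 stood at -0.14 (adjusted p = 0.80 by edgeR).

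Among the other chemokine ligands, 8 of the 22 listed genes passed the filter, and none differed at an adjusted p of 0.05, with 3 of the 8 at an unadjusted p under 0.05 and a median log2 fold change of -0.10. Over all tested genes 11.1% had such a p, and the counts at an unadjusted p in the lists that follow stand beside that same share. Cxcl3, a ligand of CXCR2 that lies beside Cxcl1 and Cxcl2, came closest. Its CPM was 408, 470 and 462 in the TNF-α group and 381, 386 and 388 in the TNF-α+NFL group, so that the groups did not overlap. The log2 fold change was -0.21 (SE 0.049, adjusted p = 0.080 by edgeR's quasi-likelihood test), and it passed in 5 of the 17 alternative fits. Cxcl6, which also draws neutrophils, at -0.11, and Cxcl16, made as a transmembrane chemokine, at -0.092, did not pass (adjusted p = 0.36 and 0.34 by edgeR). The groups did not overlap in these either. Over all tested genes 16.8% had groups without overlap, and such cases in the lists that follow stand beside that share.

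Of 17 listed chemokine receptors 3 passed the filter, none differed, 1 had an unadjusted p under 0.05, and the median log2 fold change was 0.023. CCR6 and CX3CR1, the receptors of Ccl20 and Cx3cl1, had at most 1.02 estimated counts of their RNA (Ccr6 0 in every library, which allows up to 3, and Cx3cr1 0 to 1.02). Cxcr4, the signalling receptor of Cxcl12, had 1 to 5 and Cxcr3, the receptor of Cxcl10, 1 to 4. Ccr2 and Cxcr2 were not analysed here. The atypical receptors Ackr3 and Ackr4 stood far above these, with 1278 to 1513 and 412 to 489 estimated counts. Ackr3, which scavenges Cxcl12, had mean CPM of 72.2 ± 3.74 for TNF-α and 66.9 ± 1.23 for TNF-α+NFL (SD, n = 3 each). The log2 fold change of Ackr3 was -0.11 (SE 0.048, adjusted p = 0.41 by edgeR), although the groups did not overlap. Ackr4, a scavenger of other CC chemokines, and Ccrl2, an atypical receptor, had log2 fold changes of 0.070 and 0.023 and did not pass.

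Csf1 was joined by few relatives. Of the 7 listed genes of the colony stimulating factors and their receptors 5 passed the filter and none differed, with 2 at an unadjusted p under 0.05 and a median log2 fold change of -0.18 over the 5. Il34, the other ligand of the Csf1 receptor, was at 3.14, 3.09 and 3.74 CPM in the TNF-α group and 2.86, 2.00 and 2.70 CPM in the TNF-α+NFL group. The groups did not overlap, but the log2 fold change of -0.40 (SE 0.18, adjusted p = 0.44 by edgeR) did not pass. Csf2ra and Csf2rb, the chains of the GM-CSF receptor, stood at -0.18 and -0.0012 and did not pass. Csf1 thus exceeded Il34 by a wide margin per length, with a mean FPKM of 615 against 1.76.

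The 24 listed genes of the NF-κB route, which carries the TNF-α signal to chemokine genes, all passed the filter and none differed, not even at an unadjusted p under 0.05, with a median log2 fold change of -0.017. Tnip1, an inhibitor of the route, stood at 0.054 (adjusted p = 0.66 by edgeR), Nfkbia, which encodes IκBα, at -0.054 (adjusted p = 0.63), and Tnfrsf1a, the TNF-α receptor TNFR1, at -0.070 (adjusted p = 0.54). In Nfkbia and Tnfrsf1a the groups did not overlap. Of 15 interferon-side regulators, which bear on Cxcl10, none passed and 1 had an unadjusted p under 0.05, and the median was 0.0013. Jak1 and Ifnar1, a kinase and a receptor chain of interferon signaling, stood at 0.043 and -0.039.

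The last lists concern what happens to chemokine RNA and protein once made. Of 8 RNA-binding factors that govern the decay of such mRNA none passed, with 1 at an unadjusted p under 0.05 and a median log2 fold change of 0.037. Zfp36l1, Zfp36 and Zc3h12a stood at -0.053, 0.040 and 0.017. Of the proteases that shed or trim these proteins, 5 of the 6 listed passed the filter and none differed, with 1 at an unadjusted p under 0.05 and a median of -0.051. Adam17, which cleaves membrane-bound Cx3cl1 and Csf1, was at 0.055, with no overlap of the groups. Mmp2 and Mmp14, which trim several chemokines, were at -0.10 and -0.051. None of these 6 genes passed an adjusted p of 0.05. By other tools, Cxcl3 was the only gene of the 7 lists that the DESeq2 Wald test called, which gave no adjusted p for Ackr4, Ccrl2, Csf2ra, Csf2rb and Il34 among those named, and limma-voom called 0.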

How the data were processed

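RNA-seq of 6 rat chondrocyte libraries was analysed, 3 of each group. The authors deposited estimated counts per gene (RSEM), FPKM values and TPM values, and the submitters' processing notes name HISAT2 2.0.4, Bowtie2 2.2.5, RSEM 1.2.12 and the build Rnor_6.0. TPM was not used for tests. Estimated counts, 19344893 to 19725135 per library, were rounded and tested over the whole table by the robust quasi-likelihood test of edgeR 4.0.16 (R 4.3.3), two-sided, after filterByExpr and TMM normalization, with Benjamini-Hochberg adjustment over the 13250 genes left. The 95% intervals follow from the F statistic. Transcript lengths were derived from counts and FPKM. The length trend is a loess curve with a span of 0.5 for each library.

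The 10 genes and the 7 gene lists were chosen with earlier results of these data known, so no p is given over a list. All 10 genes are named, with any list gene past an adjusted p of 0.05 and up to 3 list genes of highest mean CPM. A list gene that this rule would name is not reported here. Markers, Ccl3 and receptors below the filter were named in addition, after their values were seen. Alternatives were other filters, DESeq2 1.42.0 (size factors or Wald test), limma 3.58.1 (voom, or log2(FPKM + 1) and log2(FPKM + 0.1) for FPKM of at least 1), the replicate number as a block, removal of the length trend, and leaving out each library.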

Additional observations from a re-analysis of the deposited data

How the results depend on the processing

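Over 17 alternatives and 10 genes, 162 of the 170 log2 fold changes kept direction and side of the threshold. Here a value with no adjusted p (Ccl5, Cxcl2 and Cxcl10 by the DESeq2 Wald test) was counted as not passing. The number of members past an adjusted p of 0.05 ranged from 0 to 2 when 1 library was left out, and was 2 only without TNF-α replicate 1. Their median log2 fold change ranged from -0.082 to -0.025 in those fits, with -0.025 without TNF-α replicate 3, and was -0.011 with the length trend removed and -0.012 with that trend removed and TNF-α replicate 1 left out, an alternative chosen after seeing the data. The number of members without overlap ranged from 0 to 5, the 5 without TNF-α replicate 1 (37.3% of all tested genes there). Ccl2 reversed to 0.012 and Ccl20 to 0.012 with the length trend removed, and Ccl20 to 0.054 without TNF-α replicate 1 too. When 1 library was left out, Ccl2 ranged from -0.13 to 0.0033 (without TNF-α replicates 1 and 3), Ccl5 from -0.63 to -0.28 (without TNF-α+NFL replicates 3 and 2), Cxcl2 from -0.21 to -0.073 (without TNF-α replicates 1 and 3), Cx3cl1 from -0.13 to 0.0096 and Csf1 from -0.026 to 0.026 (the last pair highest without TNF-α replicate 1). Ccl7 ranged from -0.14 to -0.037, Ccl20 from -0.095 to -0.00081, Cxcl1 from -0.10 to -0.037 and Cxcl10 from 0.0061 to 0.12, each of them nearest 0 without TNF-α replicate 3, and Cxcl12 from 0.0099 to 0.072 (without TNF-α replicate 2 and TNF-α+NFL replicate 2).

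Over all genes, 81 passed (54 higher, 27 lower). The number was 132 with no filter, 148 by the DESeq2 Wald test, 35 by limma-voom, 2 on log2(FPKM + 1), 2 on log2(FPKM + 0.1), 1 on FPKM without a filter, 236 with the length trend removed and 387 with TNF-α replicate 1 also left out, and 5 to 930 when 1 library was left out (930 without TNF-α replicate 1, 5 without TNF-α+NFL replicate 1). DESeq2 gave no adjusted p for Ccl5, Cxcl2 and Cxcl10. Under the replicate block 34 genes and 0 members passed. Same-numbered libraries had deviations correlated at 0.030, -0.024 and 0.10, and 3 of 6 libraries correlated best with their own number, so the numbers were not taken as pairs.

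List genes passed in 1 case with no filter, 1 by the DESeq2 Wald test and 1 with the length trend removed (each Cxcl3), in 2 with TNF-α replicate 1 also left out (Cxcl3 and Zfp36l2), and in 0 to 3 when 1 library was left out (Cxcl3, Csf2 and Zfp36l2 without TNF-α replicate 1). Reversed values were Csf2rb at 0.00028 with at least 10 counts, 0.00023 by the DESeq2 Wald test, and, with the trend removed and TNF-α replicate 1 left out, Zc3h12a at -0.013 and Mmp14 at 0.014. When 1 library was left out, Csf2rb ranged from -0.17 to 0.20, Ccrl2 from -0.25 to 0.38, Zc3h12a from -0.013 to 0.060, Mmp14 from -0.084 to 0.011, Ackr3 from -0.14 to -0.066 and Il34 from -0.50 to -0.26. Ccl5 and Cxcl10 rested on 53 to 118 estimated counts, the least of the members. The cause of these shifts was not tested.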
